A study of Homo sapiens with 15 samples.

Results

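Histones are the proteins around which DNA is wound, and 58 of their genes could be followed in the HMT3522 breast epithelial cells. The members are all genes whose earlier symbol starts with HIST1 to HIST4, H2AF or H3F, or with H1F and a digit or X, and that have a probe set naming no other gene. They were measured by 70 of the 18421 single-gene probe sets, and they are 58 of the 11563 genes so measured. Of these genes, 51 are replication-type histones (6 of H1, 11 of H2A, 14 of H2B, 10 of H3 and 10 of H4) and 7 are variants.

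The study profiled 15 total RNA samples of the HMT3522 series, all grown in 3D in a laminin-rich extracellular matrix (lrECM), on Affymetrix U133A-type arrays. S1 (3 samples) is the line labelled normal, and T4 (3 samples) is its malignant counterpart. The other 9 samples, called T4R here, are T4 cells labelled as reverted, each with another agent. Per the labels, the agents were the metalloproteinase inhibitor GM6001, an inhibitor of MMPs and ADAMs (matrix metalloproteinases and their membrane-bound relatives), TNF protease inhibitor-2, the MEK inhibitor PD98059, the PI3K inhibitor LY294002, dominant-negative Rap1, the EGFR kinase inhibitor Tyrphostin AG 1478, the EGFR-blocking antibody mAb225 and the β1-integrin-blocking antibody AIIB2. Each agent had 1 sample, no dose or time is stated in the labels, and a vehicle control is mentioned without saying which samples received it. All groups are cultures of 1 cell lineage, and T4R differs from T4 by its agent. The deposited values form 2 tables by array type. In the first are S1 samples 1 and 2, all T4 samples, GM6001, LY294002 and the MMP and ADAM inhibitor, and in the second are S1 sample 3 and the other 6 agents.

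A nucleosome holds pairs of H2A, H2B, H3 and H4, and H1 binds the DNA between nucleosomes. Replication-type histone genes come in many near-identical copies, clustered mainly on chromosome 6 with a smaller set on chromosome 1, and their transcription rises in S phase when new DNA is packaged. Their main transcripts end in a stem-loop bound by SLBP and carry no poly(A) tail, although some loci also give polyadenylated forms. Most variant histones are made throughout the cell cycle from single, polyadenylated genes, and variants replace the replication-type proteins at particular sites. Constant, polyadenylated expression need not hold for each variant, H2AX included. H2AX is phosphorylated at DNA breaks, H2A.Z marks promoters and enhancers, macroH2A is linked to silent chromatin and H3.3 is deposited at active genes. The labels name a standard Affymetrix protocol and do not say how the labelled RNA was primed, so what share of the stem-loop transcripts was measured is unknown.

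Of the 58 genes, 47 lie on chromosome 6 and 4 on chromosome 1. The variant genes measured were H1-10, H2AX, H2AZ1, H2AZ2, MACROH2A1, MACROH2A2 and H3-3B. Another 17 histone probe sets were left out, 13 of them because they name several genes, so that H3-3A has no member probe set. Of the 70 probe sets used, 15 carry the suffix _s_at and 11 the suffix _x_at, which Affymetrix gives to probe sets that may match more than 1 transcript, and copies of replication-type genes can share signal. After the dimmest 25% of all genes were left out, 36 members were tested, 29 of replication type and all 7 variants. The 22 untested members (4 of H1, 3 of H2A, 3 of H2B, 7 of H3 and 5 of H4) had log2 values of 6.48 to 7.06 over all samples. Their group means differed by at most 0.21, and since they were left out, these 22 genes carry no call either way. The largest difference was in H2BC11. In a fit over all single probe sets it had 0.17 ± 0.06 for T4 minus S1 (limma, adjusted p = 0.0627). For T4R minus T4 it had -0.15 ± 0.05 (limma, adjusted p = 0.132).

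Promoters of the genes on which the results turn are printed below from RefSeq (GRCh38.p14), as the 250 bases before the transcription start, 5′ to 3′ on the gene's strand. They are shown because the members share promoter elements although the rule used only names. Capitals mark 3 motifs searched on both strands, the octamer ATTTGCAT, the TATA motif TATAAA and the CCAAT motif. H2BC21 is at chr1:149886683-149886932 on the minus strand, H3C10 at chr6:27809801-27810050 on the plus strand, H2AC11 at chr6:27132793-27133042 on the plus strand, H4C8 at chr6:26285535-26285784 on the minus strand and H2AZ2 at chr7:44848088-44848337 on the minus strand.
H2BC21: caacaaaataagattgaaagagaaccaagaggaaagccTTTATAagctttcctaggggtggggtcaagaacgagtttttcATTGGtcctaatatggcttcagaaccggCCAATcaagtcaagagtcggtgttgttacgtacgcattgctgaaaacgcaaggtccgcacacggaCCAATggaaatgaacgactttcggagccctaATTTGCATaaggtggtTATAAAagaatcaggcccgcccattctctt
H3C10: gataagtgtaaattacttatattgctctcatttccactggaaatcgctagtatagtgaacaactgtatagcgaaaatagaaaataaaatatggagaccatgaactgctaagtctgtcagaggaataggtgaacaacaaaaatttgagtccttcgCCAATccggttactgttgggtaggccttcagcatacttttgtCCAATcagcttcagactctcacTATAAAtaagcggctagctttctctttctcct
H2AC11: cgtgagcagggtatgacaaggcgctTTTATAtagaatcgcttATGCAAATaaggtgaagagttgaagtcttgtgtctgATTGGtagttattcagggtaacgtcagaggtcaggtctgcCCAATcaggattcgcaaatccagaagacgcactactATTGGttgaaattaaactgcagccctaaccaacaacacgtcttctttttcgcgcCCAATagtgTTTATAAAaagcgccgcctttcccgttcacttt
H4C8: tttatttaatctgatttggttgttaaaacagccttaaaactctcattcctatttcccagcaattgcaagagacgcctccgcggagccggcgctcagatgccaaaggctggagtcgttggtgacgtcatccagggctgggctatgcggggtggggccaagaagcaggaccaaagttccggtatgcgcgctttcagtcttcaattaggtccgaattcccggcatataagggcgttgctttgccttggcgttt
H2AZ2: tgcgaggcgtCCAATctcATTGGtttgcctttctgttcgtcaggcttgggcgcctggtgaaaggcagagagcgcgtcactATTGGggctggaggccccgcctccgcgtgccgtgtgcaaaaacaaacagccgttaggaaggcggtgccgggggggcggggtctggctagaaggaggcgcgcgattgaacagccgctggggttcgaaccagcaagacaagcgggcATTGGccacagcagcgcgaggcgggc

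A RefSeq promoter was matched for 54 of the 58 members. Among the 47 replication-type promoters, 19 held the octamer (40.4%, against 1.66% of 27305 promoters of all genes), 30 held TATAAA (63.8% against 11.1%) and 42 held CCAAT (89.4% against 33.0%). The octamer count differed by class: it was in 11 of 14 H2B and 7 of 11 H2A promoters, in 1 of 8 H3 promoters and in none of the 6 H1 and 8 H4 promoters. Where windows of neighbours overlap, 1 site counts for both genes. H2AC8, H2AC11, H2AC14 and H2AC17 share their octamer with H2BC8, H2BC11, H2BC14 and H2BC17, and H3C4 shares its octamer with H2BC7. These counts are therefore of promoters and not of separate sites. H2BC21 held it in its common H2B place, 46 to 39 bases before the start, with TATAAA 30 to 25 bases before the start. H3C10 held no octamer, but a TATAAA 32 to 27 bases before the start and 2 CCAAT motifs. In H2AC11 the octamer lay on the opposite strand, 208 to 201 bases before the start, and its TATAAA matches at 33 to 28 and 31 to 26 overlap on opposite strands. H4C8 held none of the 3 motifs, and H2AZ2 held 4 CCAAT motifs only. These matches describe the letters in the window and are not measured binding sites.

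Among the members, 7 pairs on opposite strands had promoter windows that overlap, by 193 to 247 bases, so that 1 stretch of DNA lies before both genes. H2AC11 is paired in this way with H2BC11, which was too dim to be tested. Both genes were tested in 3 pairs. H2AC8 and H2BC8 had log2 differences close to each other, -0.34 and -0.35 for T4 minus S1 and 0.68 and 0.74 for T4R minus T4. H2BC7 and H3C4 had -0.08 and -0.10, then 0.24 and 0.13. H2AC14 and H2BC14 had -0.54 and -0.07, then 0.68 and 0.07, and H2BC14 had group means of 7.03 to 7.08, near the dimmest genes tested. None of these 12 differences passed the test except that of H2AC14 for T4R minus T4.

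Samples of a group did not share 1 level of replication-type histone RNA. The median log2 level over the 29 tested replication-type genes was 8.31 and 8.28 in S1 samples 1 and 2 but 7.15 in S1 sample 3. It was 8.12 and 8.11 in T4 samples 1 and 2 but 7.48 in T4 sample 3. Against the mean of S1 samples 1 and 2, 27 of 29 genes were lower in S1 sample 3, by a median of -1.26, and 15 were at least 2-fold lower, whereas the median over all 8672 genes tested was 0.00. Against the mean of T4 samples 1 and 2, 21 of 29 genes were lower in T4 sample 3, by a median of -0.30, and 3 were at least 2-fold lower. The same samples stood apart in genes of DNA replication: all 20 S phase genes measured (MCM2 to MCM7, PCNA, RRM2 and others) were higher in S1 sample 3, by a median of 1.57, and all 20 in T4 sample 3, by a median of 0.87. S1 sample 3 is also on the other array type, whereas T4 sample 3 is not. What sets these samples apart was not tested.

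**Figure D1:**
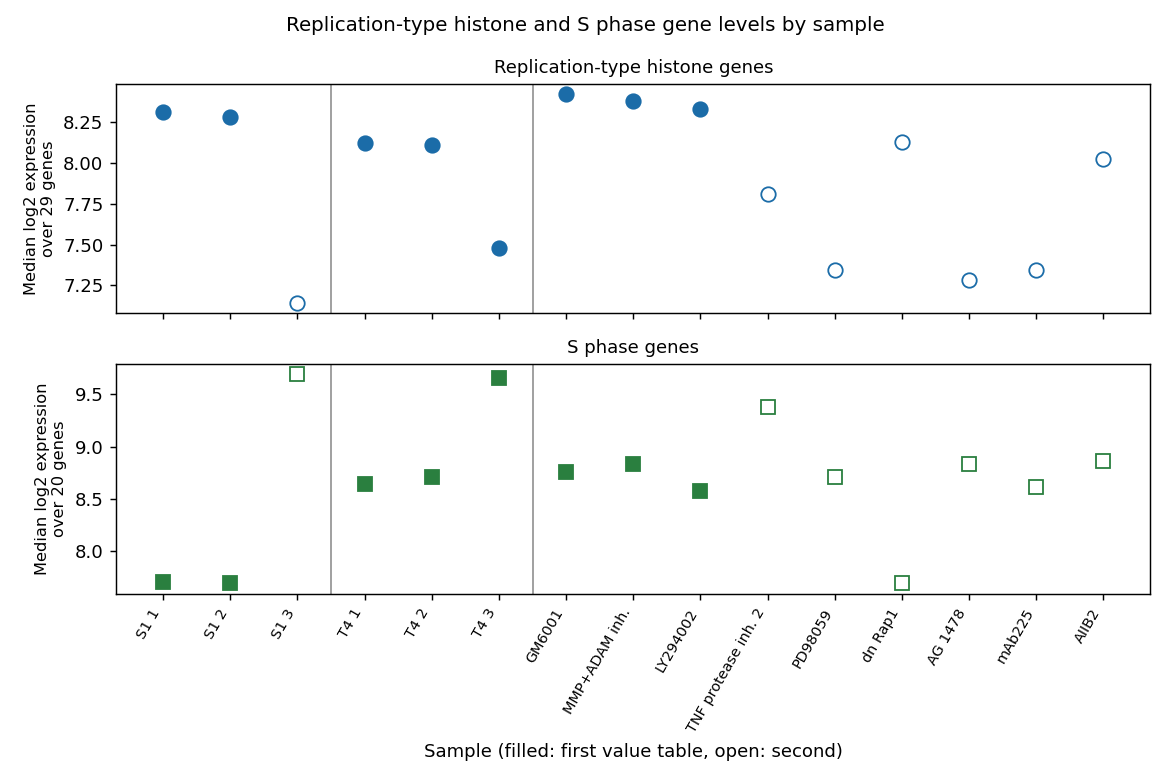
Median deposited log2 level per sample over the 29 tested replication-type histone genes (upper panel) and the 20 S phase genes (lower panel), with filled symbols for the first value table and open symbols for the second. S1 sample 3 and T4 sample 3 have histone medians of 7.15 and 7.48, the lowest of their groups, and S phase medians of 9.69 and 9.66, the highest.

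Agents also differed by table. The 3 agents of the first table had replication-type medians of 8.42 (GM6001), 8.38 (MMPs and ADAMs) and 8.33 (LY294002). Those of the second table had 8.13 (dominant-negative Rap1), 8.03 (AIIB2), 7.81 (TNF protease inhibitor-2), 7.34 (PD98059), 7.34 (mAb225) and 7.28 (Tyrphostin AG 1478). All 29 genes had a lower mean over the second table's agents than over the first table's, by a median of -0.48, and the variants did not share this, with 3 of 7 higher and 4 lower. The array type and the agents cannot be told apart here, so the table is a term in the fit, and the values of the first table alone are given beside the fit. The dominant-negative Rap1 sample had an S phase median of 7.70, as low as S1 samples 1 and 2 (7.71 and 7.70), while its replication-type median was among the highest of its table.

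**Figure D2:**
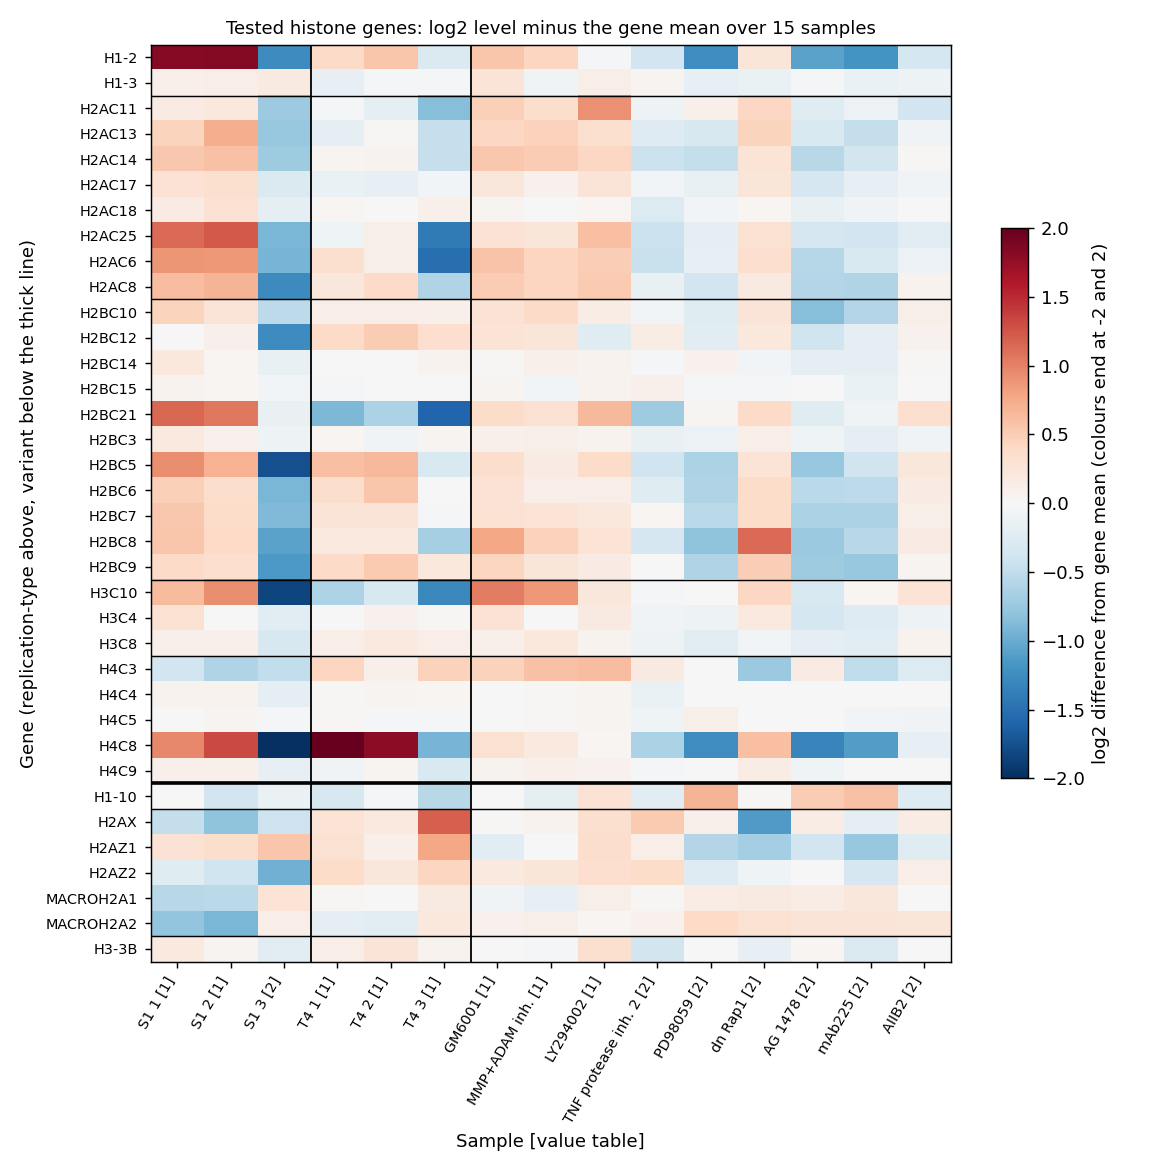
Deposited log2 level of each of the 36 tested histone genes minus its mean over the 15 samples, by sample, with the value table in brackets and the variant genes below the thick line. Among the S1 columns, sample 3 is below the mean of samples 1 and 2 in 27 of 29 replication-type rows and in 2 of 7 variant rows.

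T4 was compared with S1 to ask which histone genes separate the malignant from the nonmalignant line. Replication-type genes were mostly lower and variants mostly higher in T4, but few passed the test. With limma and an adjusted p below 0.05, 2 of 29 replication-type genes were lower and 0 higher (H2BC21 and H2AC25), and 4 of 7 variants were higher and 0 lower (H2AX, H2AZ2, MACROH2A1 and MACROH2A2). Over all 8672 genes tested, 27.8% were called, 12.6% lower and 15.1% higher. The share of replication-type genes called was therefore below the background in both directions, and that of the variants called higher was above it. The median log2 difference was -0.12 over the replication-type genes (21 of 29 below 0), 0.46 over the variants and 0.01 over all genes. In T4 against S1 the number of members called was 6 with all samples, 2 without S1 sample 1, 3 without S1 sample 2, 13 without S1 sample 3, 2 without T4 sample 3 and 10 without dominant-negative Rap1. The share of all genes called in these fits is not set beside the counts, so they are not read as a trait of the histone genes. In bulk RNA, fewer cells of a kind and less RNA per cell cannot be told apart, and since the labels do not state that the samples were grown separately, a p-value here reflects the spread between samples, which may be technical.

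H2BC21, an H2B gene of the chromosome 1 set, had the largest difference. Its log2 levels were 10.65, 10.55 and 9.34 in the S1 samples and 8.60, 8.85 and 7.90 in the T4 samples. Every T4 sample lay below every S1 sample, S1 sample 3 included. The fitted difference was -1.95 ± 0.30 (SE), 3.87-fold lower in T4 (limma, adjusted p = 0.000387), with means of 10.18 ± 0.73 and 8.45 ± 0.49 (SD, n = 3 each). In the first table alone it was -2.15 ± 0.26 (limma, adjusted p = 0.00113). This call was kept under all 30 alternatives, with values of -2.16 to -1.68.

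H2AC25, the H2A gene formerly in the HIST3 set on chromosome 1, had 11.06, 11.16 and 9.01 in S1 and 9.84, 10.04 and 8.51 in T4. The groups overlapped, since S1 sample 3 lay below T4 samples 1 and 2. The fitted difference was -1.26 ± 0.40, 2.40-fold lower (limma, adjusted p = 0.0289). Without S1 sample 1, S1 sample 2 or T4 sample 3 it was -1.07, -1.01 and -0.79, with adjusted p of 0.124, 0.140 and 0.114. The other tested gene on chromosome 1, H2AC18, had -0.11 ± 0.10 on a dim probe set (group means of 7.06 to 7.20) and did not pass. Brighter probe sets that name H2AC18 together with H2AC19, and so are not members, gave -0.99 ± 0.50 and -1.05 ± 0.52 and did not pass.

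**Figure D3:**
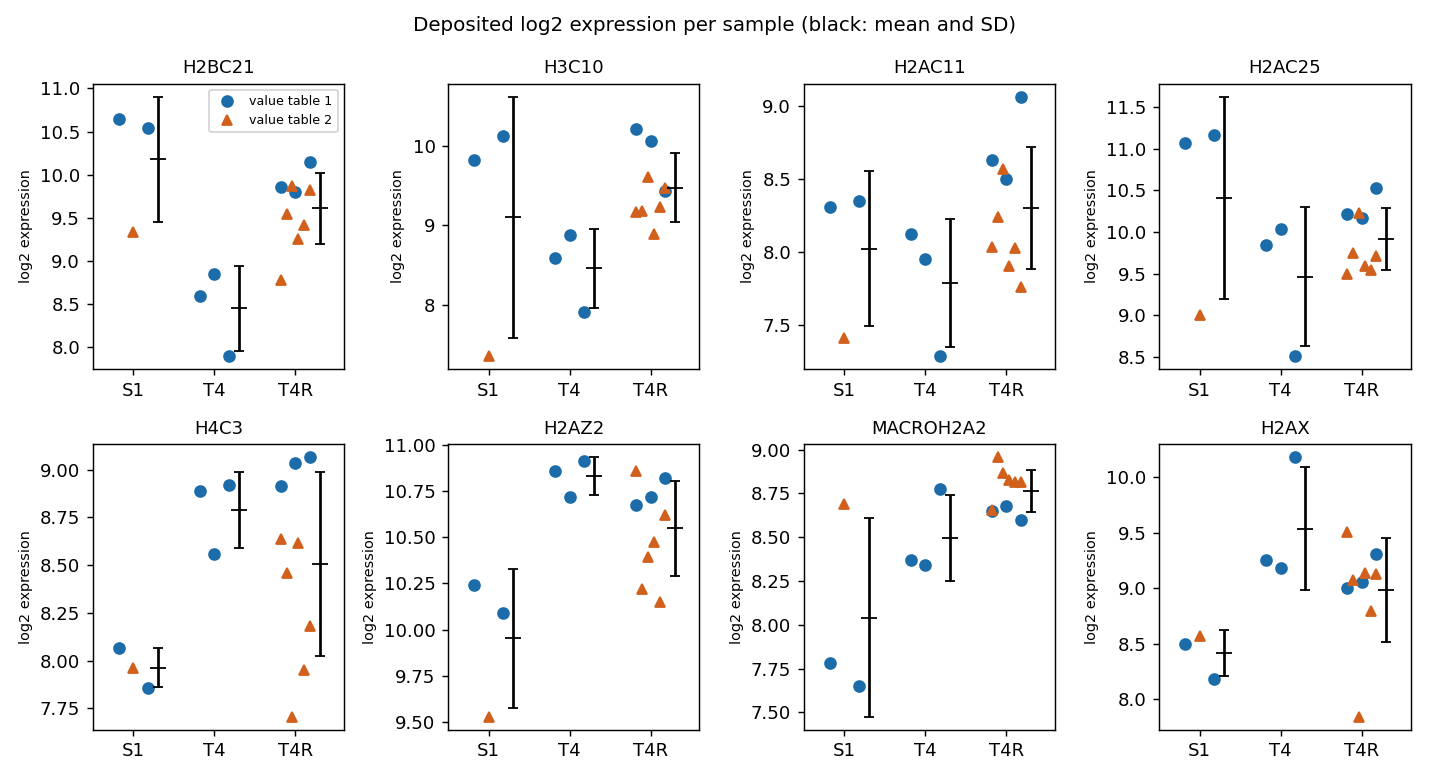
Deposited log2 level of 8 histone genes in each sample of S1 (n = 3), T4 (n = 3) and T4R (n = 9 agents), with circles for the first value table, triangles for the second, and black marks for the group mean and SD. H2BC21 is below 9 in all 3 T4 samples and at 9.34 or above in all 3 S1 samples, whereas for H3C10 S1 sample 3 (7.36) lies far below S1 samples 1 and 2.

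Other replication-type genes named for their level or for later comparisons did not pass. H3C10, an H3 gene of the chromosome 6 cluster, had 9.82, 10.13 and 7.36 in S1 and 8.59, 8.87 and 7.91 in T4. S1 sample 3 was the lowest of all 6, and the difference of -1.02 ± 0.41 had a limma adjusted p of 0.0768. H1-2, a linker histone gene, had 11.39, 11.41 and 8.32 in S1 and 9.96, 10.13 and 9.28 in T4, a difference of -1.09 ± 0.49 (limma, adjusted p = 0.115). In both genes S1 samples 1 and 2 were above every T4 sample and S1 sample 3 was below every T4 sample. H2AC6 differed by -0.96 ± 0.41, and all 8 tested H2A genes were below 0, with a median of -0.51 and 1 call. The 11 H2B genes had a median of -0.07 with 4 above 0. H4C8 had the widest spread of any member, with 9.42, 9.78 and 6.39 in S1 and 10.75, 10.25 and 7.53 in T4, and a difference of 0.51 ± 0.78. H2BC12, the H2B gene with the highest mean level on its probe sets, had 11.40, 11.50 and 10.14 in S1 and 11.79, 11.91 and 11.73 in T4. Its T4 samples were all above its S1 samples, but the difference of 0.65 ± 0.25 did not pass (limma, adjusted p = 0.0692).

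The calls depended on S1 sample 3. In the first table alone, which leaves that sample out, 7 of 29 replication-type genes were lower (14.9% of all genes were) and 1 higher (16.5% of all genes). The lower genes were H1-2 (-1.61 ± 0.26), H2AC13, H2AC14, H2AC17, H2AC25, H2BC21 and H3C10 (-1.52 ± 0.32), and the higher gene was H4C3 (0.83 ± 0.13). The same 4 variants were called higher there. On its S1 side that table holds only samples 1 and 2. These were close, with 2 of 8672 genes at least 2-fold higher in sample 2 and 13 lower. Against their mean, 261 genes were at least 2-fold higher in S1 sample 3 and 300 lower. The small standard errors in that table may therefore be of technical spread. Sample numbers, in the sense given under processing, were not in the main fit. With the number and the table as blocks, 9 replication-type genes were lower and 3 higher (18.9% and 22.8% of all genes). H2BC21 was then at -1.87, H1-2 at -1.36 and H3C10 at -1.25, and H2BC12, H4C3 and H4C8 were called higher. That fit rests on S1 and T4 samples 1 and 2, since a table term within 6 samples takes up S1 sample 3. Few residual degrees of freedom are left, so limma takes the spread of a gene mostly from all genes. The standard errors were 0.11 for H1-2 and 0.10 for H3C10, against 0.26 and 0.32 in the first table alone. Its calls are therefore not firmer than those of the other fits. With the number as a block and no table term, 3 replication-type genes were lower and 2 higher (8.39% and 11.8% of all genes), and MACROH2A1 (0.35, adjusted p = 0.220) and MACROH2A2 (0.45, adjusted p = 0.105) were no longer called by limma. H2BC21 was called in all of these fits.

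Among the variants, H2AZ2, which encodes an H2A.Z protein, had 10.24, 10.09 and 9.53 in S1 and 10.86, 10.72 and 10.91 in T4. All T4 samples were above all S1 samples, and the difference was 0.75 ± 0.16, or 1.68-fold (limma, adjusted p = 0.00392). Its other probe sets gave 0.28 ± 0.18 and 0.42 ± 0.24 and did not pass. H2AZ1, which encodes the other H2A.Z protein, had 12.11, 12.16 and 12.37 in S1 and 12.11, 11.91 and 12.59 in T4. These values overlapped, with a difference of -0.10 ± 0.25 (limma, adjusted p = 0.808).

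H2AX had 8.50, 8.18 and 8.57 in S1 and 9.25, 9.18 and 10.18 in T4. The groups did not overlap, and T4 sample 3 was the highest of all samples. The difference was 1.09 ± 0.36, 2.13-fold higher in T4 (limma, adjusted p = 0.0377). Its other 3 probe sets gave 0.21 ± 0.07, 0.22 ± 0.14 and -0.04 ± 0.06, none called, and in that fit over single probe sets the brightest one had an adjusted p of 0.0599. Without S1 sample 1, S1 sample 2, T4 sample 3, GM6001 or the MMP and ADAM inhibitor its adjusted p was 0.0882, 0.148, 0.150, 0.0518 and 0.0507.

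MACROH2A2 had 7.78, 7.65 and 8.69 in S1 and 8.37, 8.34 and 8.78 in T4, and MACROH2A1 had 10.53, 10.56 and 11.36 in S1 and 11.12, 11.11 and 11.26 in T4. In both, S1 sample 3 lay above T4 samples 1 and 2, so the groups overlapped, and S1 samples 1 and 2 were the lowest. The differences were 0.58 ± 0.17 for MACROH2A2 (limma, adjusted p = 0.0209) and 0.46 ± 0.14 for MACROH2A1 (limma, adjusted p = 0.0260). A second MACROH2A1 probe set gave 0.95 ± 0.28 (limma, adjusted p = 0.0357 in the fit over single probe sets). Without S1 sample 1, S1 sample 2 or T4 sample 3 the adjusted p was 0.0940, 0.126 and 0.0839 for MACROH2A2 and 0.136, 0.129 and 0.0799 for MACROH2A1. H3-3B, which encodes H3.3, and H1-10, a linker histone variant, differed by 0.06 ± 0.13 and -0.07 ± 0.26 and did not pass. Other H3-3B probe sets lay between -0.68 ± 0.27 and 0.11 ± 0.12, also with no call.

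Counting samples without a fit, the deposited values of 3 replication-type genes (H2BC12, H3C8 and H4C3) and of 2 variants (H2AX and H2AZ2) were higher in every T4 than in every S1 sample, where 20.2% of all genes were. Those of H2BC21 and H1-3 were lower in every T4 sample, where 17.5% of all genes were.

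T4R was compared with T4 to ask what changes when malignant cells are treated with reverting agents. With limma, 5 of 29 replication-type genes were called higher (6.64% of all genes were) and 0 lower (8.69% of all genes were), and 0 of 7 variants were called, where 15.3% of all genes were called in either direction. The 5 are H2BC21, H3C10 and the H2A genes H2AC11, H2AC13 and H2AC14. The median difference was 0.22 over the replication-type genes, with 27 of 29 above 0, and 0.71 over the 8 H2A genes. It was -0.04 over the variants and -0.00 over all genes. T4 was measured only in the first table, so the table term, which S1 sample 3 enters, bears on these differences. Within that table, 24 of 29 replication-type genes were above the mean of the T4 samples with GM6001 (median 0.17). With the MMP and ADAM inhibitor 20 were (median 0.12), and with LY294002 22 were (median 0.07). The T4 samples enter both this comparison and that with S1, so T4 sample 3, the lowest T4 sample for all 5, enters both. In T4R against T4 the number of members called was 5 with all samples and 3 without S1 sample 1, S1 sample 3, T4 sample 3, GM6001 or the MMP and ADAM inhibitor. Here too the share of all genes called may change between the fits. T4R holds 9 agents of 1 sample each, so its spread includes differences between agents.

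**Figure D4:**
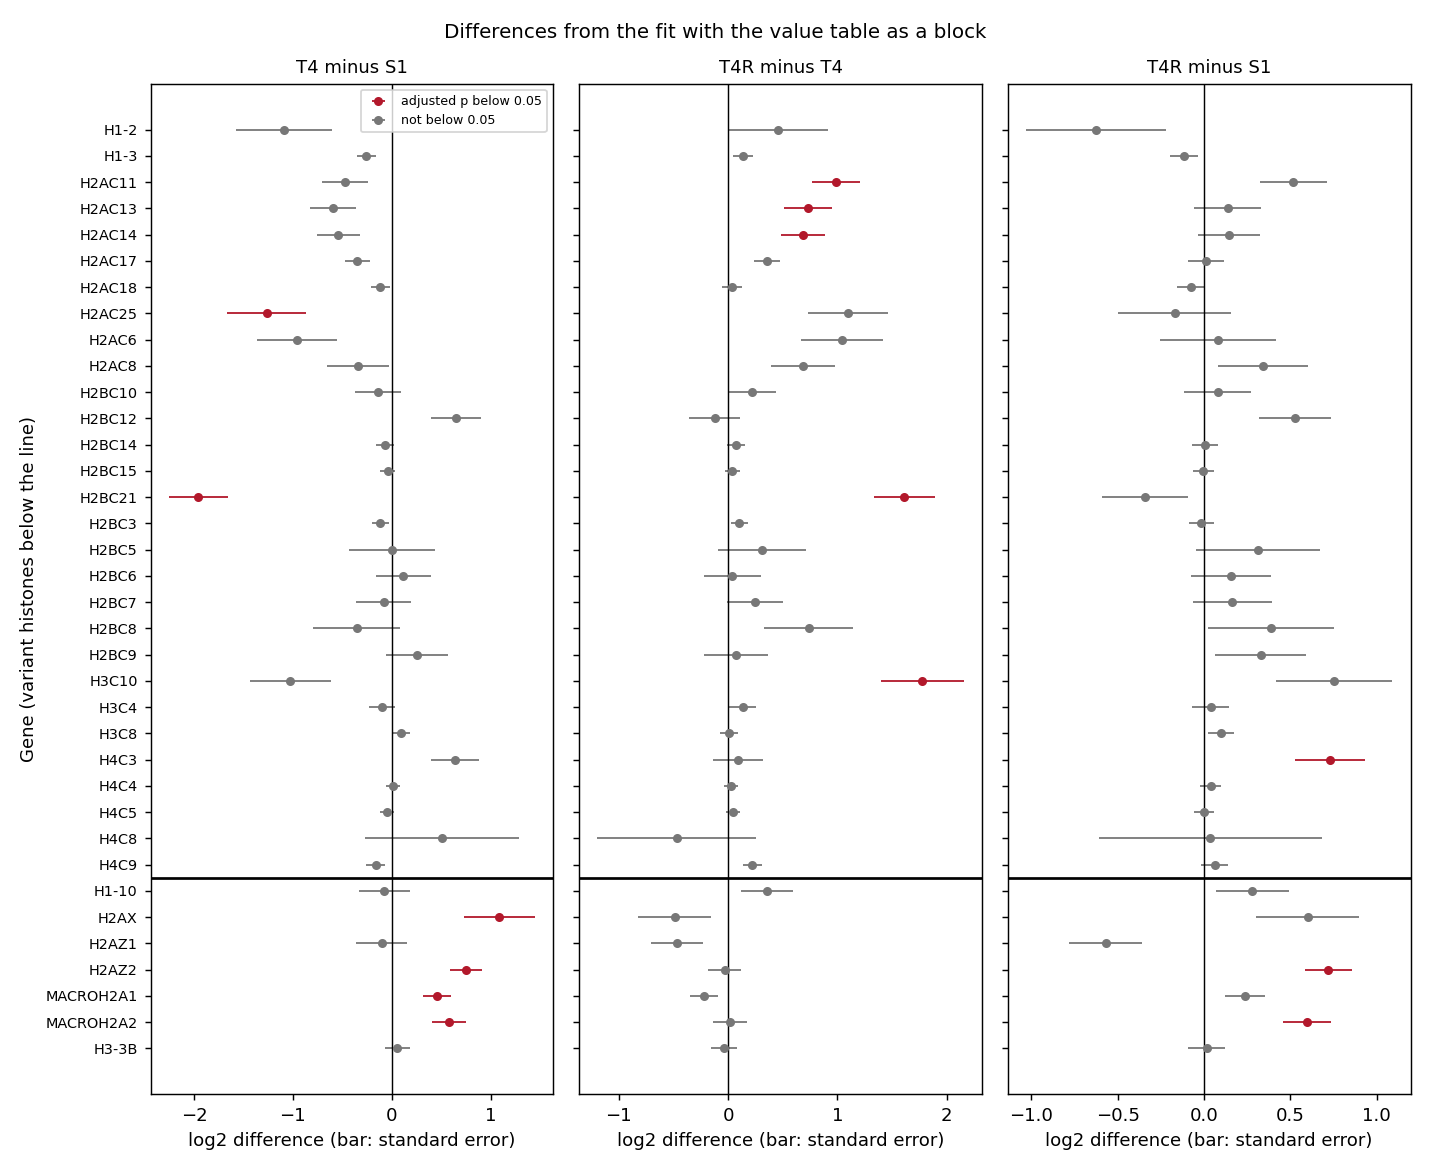
Log2 differences of the 36 tested histone genes for T4 minus S1, T4R minus T4 and T4R minus S1, from the fit with the value table as a block; points are the estimates, bars the standard error, and red marks an adjusted p below 0.05. H2BC21 is at -1.95, 1.61 and -0.34, and 27 of the 29 replication-type genes are above 0 in T4R minus T4. With single agents of the first table, 20 to 24 of the 29 were above the mean of the T4 samples.

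H3C10 had the largest difference. Its level was 8.59, 8.87 and 7.91 in T4 and 8.89 to 10.22 in T4R, with a median of 9.43. Every treated sample was above every T4 sample, and the lowest, Tyrphostin AG 1478 at 8.89, lay just above T4 sample 2 at 8.87. The fitted difference was 1.78 ± 0.38, 3.43-fold higher (limma, adjusted p = 0.00705), and 1.45 ± 0.29 in the first table alone. With no table term and both tables normalised together it was 1.05, with an adjusted p of 0.115.

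H2BC21 had 8.60, 8.85 and 7.90 in T4 and 8.78 to 10.15 in T4R, with a median of 9.80. Only TNF protease inhibitor-2, at 8.78, lay below a T4 sample. The difference was 1.61 ± 0.28, 3.06-fold higher (limma, adjusted p = 0.00198), and 1.48 ± 0.23 in the first table alone. It was called under all 27 alternatives, with values of 1.20 to 1.81. H2BC21 was thus called lower in T4 than in S1 and higher in T4R than in T4, and T4R and S1 differed by -0.34 ± 0.25 (limma, adjusted p = 0.362). In the first table alone T4R and S1 differed by -0.66 ± 0.26, also without a call.

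H2AC11 had 8.12, 7.95 and 7.29 in T4 and 7.76 to 9.06 in T4R, with a median of 8.24. The groups overlapped, and the first table's agents, at 8.63, 8.50 and 9.06, were all above T4. The difference was 0.99 ± 0.22 (limma, adjusted p = 0.00830), and with no table term and both tables normalised together it was 0.53 (limma, adjusted p = 0.202). H2AC13 had 7.34, 7.53 and 7.06 in T4 and 7.03 to 7.97 in T4R, with a median of 7.44 and a difference of 0.73 ± 0.22 (limma, adjusted p = 0.0377). H2AC14 had 7.75, 7.77 and 7.24 in T4 and 7.14 to 8.24 in T4R, with a median of 7.71 and a difference of 0.68 ± 0.20 (limma, adjusted p = 0.0367). Their deposited means were closer, at 7.31 in T4 and 7.53 in T4R for H2AC13 and at 7.59 and 7.69 for H2AC14. Both have _x_at probe sets and lie close together on chromosome 6, and for both the treated samples overlapped T4 on both sides.

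The calls of H2AC13 and H2AC14 were the least stable. For H2AC13 the limma adjusted p was 0.0540 without S1 sample 1, 0.0605 without S1 sample 3, 0.0819 without T4 sample 1, 0.139 without T4 sample 3, 0.0608 without GM6001, 0.0680 without the MMP and ADAM inhibitor and 0.0505 without Tyrphostin AG 1478. For H2AC14 it was 0.0537 without S1 sample 1, 0.0547 without S1 sample 2, 0.0664 without S1 sample 3, 0.0541 without T4 sample 1, 0.155 without T4 sample 3, 0.0709 without GM6001 and 0.0664 without the MMP and ADAM inhibitor. In the first table alone both were called, at 0.60 ± 0.13 and 0.60 ± 0.14, as was H2AC17 at 0.31 ± 0.08, which made 6 replication-type genes higher there (7.15% of all genes) and 0 lower (8.64%).

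H2AC25 and H2AC6, the tested H2A gene with the highest mean level on its probe set, did not pass. H2AC25 had 1.10 ± 0.37 (limma, adjusted p = 0.0607), and 0.84 ± 0.36 in the first table alone (limma, adjusted p = 0.164). H2AC6 had 1.04 ± 0.38 (limma, adjusted p = 0.0812), and 0.86 ± 0.43 in the first table alone (limma, adjusted p = 0.220). In the deposited values, 13 of 29 replication-type genes were higher in each of GM6001, LY294002 and the MMP and ADAM inhibitor than in every T4 sample, where 16.8% of all genes were. They were 7 H2A genes (H2AC6, H2AC8, H2AC11, H2AC13, H2AC14, H2AC17 and H2AC25), 4 H2B genes (H2BC3, H2BC8, H2BC10 and H2BC21), H3C10 and H4C9. H2BC12 alone among the members was lower in all 3 (18.8% of all genes were lower). None of the 7 variants was apart in either direction. Over all 9 agents only H3C10 was higher in every sample (6.78% of all genes) and only H2BC12 lower (8.63%), with H2BC12 at 11.79, 11.91 and 11.73 in T4 and 11.01 to 11.68 in T4R. The means of its deposited values were 11.81 ± 0.09 (SD, n = 3) and 11.39 ± 0.25 (SD, n = 9), while the difference fitted with the table term was -0.12 ± 0.23.

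Leaving out dominant-negative Rap1, S1 sample 3 and T4 sample 3 at once, the samples whose S phase or histone levels stood apart, 7 replication-type genes were higher (8.59% of all genes) and 1 lower (11.6%). Without S1 sample 3 the second table holds only agents, and the table term takes them up. These differences are therefore of GM6001, LY294002 and the MMP and ADAM inhibitor from T4 samples 1 and 2. H2BC21 was then at 1.21 ± 0.23, H3C10 at 1.18 ± 0.22 and H2AC11 at 0.69 ± 0.16, each smaller than in the fit to all samples. H2AC13, H2AC14, H2AC17 and H2AC25 were the other replication-type genes called higher, and of the variants MACROH2A2 was called higher, at 0.29 ± 0.09 (limma, adjusted p = 0.0404). The lower gene was H4C8, at -1.86 ± 0.30 (limma, adjusted p = 0.00126). With all samples, H4C8 had 10.75, 10.25 and 7.53 in T4 and 7.15 to 9.06 in T4R, and its difference of -0.47 ± 0.73 did not pass. T4 samples 1 and 2 were above every treated sample and T4 sample 3 was below 6 of the 9.

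Among the variants, no gene was called between T4R and T4 with all samples. H2AX was at 9.25, 9.18 and 10.18 in T4 and at 7.84 to 9.51 in T4R, with a median of 9.07 and a difference of -0.49 ± 0.34. H2AZ1 was at -0.47 ± 0.24 (limma, adjusted p = 0.214), with 12.11, 11.91 and 12.59 in T4 and 11.05 to 12.15 in T4R. H2AZ2 was at -0.03 ± 0.15 on its brightest probe set, but its other probe sets gave 0.64 ± 0.17 (limma, adjusted p = 0.0292 in the fit over single probe sets) and 0.70 ± 0.22 (limma, adjusted p = 0.0681), so its probe sets disagree. MACROH2A1, MACROH2A2, H3-3B and H1-10 were at -0.22 ± 0.13, 0.01 ± 0.16, -0.04 ± 0.12 and 0.35 ± 0.24.

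T4R was set against S1 to show which histone genes still differ from the nonmalignant line with the agents. With limma, 1 of 29 replication-type genes (H4C3) and 2 of 7 variants (H2AZ2 and MACROH2A2) were higher, where 12% of all genes were, and 0 members were lower, where 11.6% were (23.6% in either direction). In T4R against S1 the number of members called was 3 with all samples, 5 without S1 sample 3, 5 without T4 sample 3 and 6 without LY294002. Between these fits the share of all genes called may change as well. Leaving out dominant-negative Rap1, S1 sample 3 and T4 sample 3 at once, 5 replication-type genes were lower (H1-2, H2AC6, H2AC25, H2BC21 and H4C8) and 1 higher (H4C3), and 4 variants were higher, where 15.1% of all genes were lower and 15.9% higher. Fits without S1 sample 3 set only the first table's agents against S1 samples 1 and 2. With all samples, the median was 0.08 over the replication-type genes (22 of 29 above 0), 0.28 over the variants and 0.01 over all genes. The direction depended on S1 sample 3. In the first table alone, which leaves it out, the tested replication-type genes were below 0 except H2AC11, H2BC8, H2BC12, H3C8 and H4C3. H2AZ2 had 10.15 to 10.86 in T4R with a median of 10.62, against 10.24, 10.09 and 9.53 in S1, a difference of 0.72 ± 0.13 (limma, adjusted p = 0.00186). MACROH2A2 had 8.60 to 8.96 with a median of 8.81, against 7.78, 7.65 and 8.69, a difference of 0.59 ± 0.14 (limma, adjusted p = 0.00771). Treated samples of MACROH2A2 were all above S1 samples 1 and 2, and S1 sample 3 lay inside their range. Both calls were kept under all 27 alternatives, from 0.55 to 1.12 for H2AZ2 and from 0.47 to 0.93 for MACROH2A2. Both genes had also been called higher in T4 than in S1.

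H4C3, an H4 gene of the chromosome 6 cluster, had 8.07, 7.86 and 7.96 in S1, 8.89, 8.56 and 8.92 in T4 and 7.71 to 9.06 in T4R, with a median of 8.62. T4 lay above S1 without overlap, and among the agents dominant-negative Rap1 (7.71) and mAb225 (7.95) were below or within the range of S1. The difference of T4R from S1 was 0.73 ± 0.20 (limma, adjusted p = 0.0188), and that of T4 from S1 was 0.64 ± 0.25 (limma, adjusted p = 0.0685). Without S1 sample 1 the adjusted p of the T4R difference was 0.0658, and without S1 sample 2 it was 0.0888. In the first table alone it was 1.04 ± 0.13, and H1-2 was the 1 replication-type gene lower, at -1.50 ± 0.26 (9.62% of all genes were higher and 10.5% lower there). H1-2 had 8.34 to 10.14 in T4R with a median of 9.22, below S1 samples 1 and 2 in every agent.

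The 3 classes of agents did not differ detectably in any histone gene. The classes were protease inhibitors (GM6001, MMPs and ADAMs, TNF protease inhibitor-2), inhibitors of MEK, PI3K or Rap1 (PD98059, LY294002, dominant-negative Rap1) and blockers of EGFR or β1-integrin (Tyrphostin AG 1478, mAb225, AIIB2). No label places dominant-negative Rap1, which was put in its class from knowledge of the study. By limma's moderated F-test 0 of 36 members passed, as did 0% of all genes, and 3 members had an unadjusted p below 0.05 (H3-3B, H2AC11 and H2BC21, each with adjusted p = 0.898). With 3 samples a class, split over the tables, small differences could not be seen.

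Single agents have no replicate, so their values are given side by side and only within the first table, where T4 was measured. Relative to the mean of the 3 T4 samples, H2BC21 was 1.41 higher with GM6001, 1.35 higher with the MMP and ADAM inhibitor and 1.70 higher with LY294002 on the log2 scale. H3C10 was 1.76, 1.61 and 0.97 higher, and H2AC11 was 0.84, 0.71 and 1.27 higher, in the same order. H3C10 was thus higher with both protease inhibitors than with LY294002, and H2BC21 and H2AC11 the other way round. H4C8 differed by -0.74, -0.85 and -1.01 with these agents, and all 3 lay above T4 sample 3. Against the mean of T4 samples 1 and 2 alone, H4C8 differed by -1.73 with GM6001, by -1.84 with the MMP and ADAM inhibitor and by more with LY294002, and H2AC11 with the MMP and ADAM inhibitor was 0.47 higher. In the second table, H2BC8, singled out after its values were seen, was at 9.27 with dominant-negative Rap1 and at 7.34 to 8.31 with the other 5 agents there.

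Genes that make histone mRNA or handle histones were read from the same fit. Of 11 genes measured for histone transcription and 3′ end processing, 4 were lower and 0 higher in T4 than in S1 (median -0.21), where 12.6% of all genes were lower. In T4R against T4 2 were lower (median -0.15), where 8.69% of all genes were, and in T4R against S1 7 were lower (median -0.33), where 11.6% were. TUT7, a uridylyltransferase with a role in histone mRNA decay, was 11.02 in S1 and 9.42 in T4 on average, a difference of -1.59 ± 0.37 (limma, adjusted p = 0.00609). It stayed low in T4R, at -1.50 ± 0.31 from S1. CPSF1, a subunit of the cleavage complex, was called lower in both steps, at -0.66 ± 0.20 for T4 minus S1 and -0.60 ± 0.19 for T4R minus T4. NPAT, the coactivator of histone genes, and HINFP, the factor of H4 promoters, were lower in T4 than in S1, at -0.37 ± 0.10 and -0.41 ± 0.10. ZNF473, a zinc finger protein of the processing complex, was lower in T4R than in T4, at -0.43 ± 0.09 (limma, adjusted p = 0.00706). SLBP, which binds the stem-loop, did not pass in any comparison (-0.21 ± 0.22 for T4 minus S1). None of these 11 genes was called higher in T4R than in T4, where 6.64% of all genes were. Their part in the histone levels was not tested.

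Of 23 chaperone and deposition genes measured, 22 were tested. In T4 against S1, 1 was higher and 2 lower (median 0.06), where 15.1% and 12.6% of all genes were. In T4R against T4, 2 were higher and 1 lower (median -0.10), where 6.64% and 8.69% were, and in T4R against S1, 1 was higher and 2 lower (median 0.04), where 12% and 11.6% were. HJURP, the chaperone of the centromeric H3 variant CENPA, was 1.53 ± 0.31 higher in T4 than in S1 and then changed by -1.25 ± 0.29 in T4R. CENPA itself was 1.80 ± 0.36 higher in T4 (limma, adjusted p = 0.00226) and had -0.86 ± 0.33 in T4R against T4, which did not pass (limma, adjusted p = 0.102). SUPT16H of the FACT complex and RBBP7, which binds H4, were lower in T4 than in S1, at -0.69 ± 0.19 and -0.57 ± 0.17. ASF1A, an H3-H4 chaperone, and RBBP4 were higher in T4R than in T4 by 0.54 ± 0.16 and 0.45 ± 0.14. ANP32E, the H2A.Z chaperone, did not pass (0.37 ± 0.23 in T4 against S1).

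Of the 20 S phase genes, 1 (RRM2) was higher and 0 lower in T4 than in S1, where 15.1% and 12.6% of all genes were. The median difference was 0.53. None passed in T4R against T4 (median -0.46, 15.3% of all genes called) or in T4R against S1 (median 0.12, 23.6% of all genes called). In the fit, the replication-type histone genes had medians of the opposite sign in the first 2 of these comparisons, -0.12 and 0.22. Within the first table, S phase medians against the mean of the 3 T4 samples were -0.10 (GM6001), -0.02 (MMPs and ADAMs) and -0.32 (LY294002). Against T4 samples 1 and 2 they were 0.14, 0.27 and -0.02, in the same order. The histone medians against T4 samples 1 and 2 were 0.12, 0.10 and 0.08. Of the markers of cell types, KRT5 and KRT14 of basal epithelium had group means of 13.25 to 14.20, and KRT19 lay among the dimmest genes (6.65 to 6.75). Of 8 breast epithelial markers tested, 2 were higher in T4 than in S1 (KRT18 by 0.98 ± 0.21 and ITGA6 by 1.94 ± 0.35), where 15.1% of all genes were. In T4R against T4 KRT18 and ITGA6 were lower, at -1.07 ± 0.19 and -1.90 ± 0.33 (8.69% of all genes were lower). EPCAM was higher by 0.93 ± 0.24 (6.64% of all genes were higher). KRT8 was higher in T4R than in S1 by 0.71 ± 0.22, where 12% of all genes were higher. Of the leukocyte, endothelial and fibroblast markers, 13 were measured, PTPRC, CD3E, CD68, PECAM1, VWF, CDH5 and PDGFRA lay among the dimmest genes, and CD14 (0.97 ± 0.26 in T4 against S1, and 0.77 in T4R against S1), COL1A1 (1.46 ± 0.43 in T4R against S1) and COL3A1 (0.21 ± 0.07 in T4R against S1) were called higher. Their part in the histone results was not tested.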

How the data were processed

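Values were deposited on the log2 scale, as their range shows, in 2 tables of the same probe sets, one for each array type. Per the labels, total RNA came from Trizol extraction and was biotin-labelled following Affymetrix's usual protocol. How the authors summarised, background-corrected and normalised the arrays, and whether they treated the tables jointly, is not given in the sources used here. Detection calls were not used, and precision is limited by how few arrays there are.

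The platform annotations name 1 gene in both tables for 18421 probe sets, disagree for 188, name several genes for 614 and none for 1706, and 1286 have 1 gene in one annotation only. Their symbols are current ones, so earlier symbols were matched through the Entrez number in RefSeq (GRCh38.p14). A gene is its probe set with the highest mean. The 25% of genes with the lowest mean (below 6.98) were left out, and 8672 were tested with limma 3.58.1 in R 4.3.3 (lmFit and eBayes, 2-sided, Benjamini-Hochberg over all genes tested, threshold 0.05). One fit over 15 samples took the table as a block beside the groups S1, T4 and T4R, and another split T4R into 3 classes. T4 lies only in the first table, so its comparison with the second table's agents runs through S1 and the other agents. Means are of deposited values, and differences are from the fit. The fit was tested on simulated data. Motifs were searched in 27305 RefSeq promoters.

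The rule for named genes took the members past the threshold with the smallest p in each comparison, all variants and the tested member with the highest mean in each class. Other genes were named after their values were seen. Members and lists were chosen with earlier results of these data known. Alternatives were the choice of probe set, the filter, the normalization, the table term, array weights, averaging close samples, leaving out samples and blocking on sample number. The close samples were samples 1 and 2 of S1, and samples 1 and 2 of T4. Deviations of same-numbered S1 and T4 samples from their group means correlated at 0.28, 0.31 and 0.39 over 8672 genes. Alternatives therefore took the number as a block, and the main fit did not. Samples 1 and 2 crossed gave 0.29 and 0.31, so these correlations do not tell samples 1 and 2 of a group from each other.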

Additional observations from a re-analysis of the deposited data

Results flagged for a closer look

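H2AX in the treated samples was set apart by 1 value. With dominant-negative Rap1 its log2 level was 7.84, and the gap of 0.952 to the next sample was 0.572 of the whole range of 1.66, above the limit for 9 samples. Chance sets apart about 1 in 20 groups in this way. Every gene taken by the naming rule was screened and only H2AX was set apart, so a flag like this can arise by chance. The dominant-negative Rap1 sample had the lowest S phase median of the treated samples, 7.70. It also had the lowest H4C3 (7.71) and the highest H2BC8 (9.27) of the 9 treated samples. Whether the level of H2AX is tied to this was not tested.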

How the results depend on the processing

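Of the 14 called results, 338 of 394 alternatives kept the call, 56 lost it and 0 reversed it. Among 40 uncalled results of named genes, 83 of 1112 alternatives gave a call in the same direction and 4 gave one in the opposite direction. The number of members called in T4 against S1 was 6. It was 12 in the first table alone, 15 with array weights, 2 with close samples averaged, 13 without dominant-negative Rap1, S1 sample 3 and T4 sample 3 at once and 16 with replicate block and table block. The 12 rests on S1 samples 1 and 2 taken as separate samples, and the 2 on their mean. Leaving out 1 sample gave 2 to 13. The replicate block without the table gave 7. In T4R against S1 (3), the first table alone gave 5, array weights 10 and leaving out the 3 samples together 10, and leaving out 1 sample gave 2 to 6. In T4R against T4 (5), no table block with quantile normalization across tables gave 1, the table as a random block 3, array weights 8, close samples averaged 3 and leaving out the 3 samples together 9, and leaving out 1 sample gave 3 to 7. The classes gave 0 throughout. The share of all genes called moved with the fit as well. In T4 against S1 it was 15.1% higher and 12.6% lower with all samples. It was 16.5% and 14.9% in the first table alone, and 22.8% and 18.9% with both blocks. In T4R against T4 it went from 6.64% and 8.69% to 8.59% and 11.6% without the 3 samples together. A changed count is therefore not by itself a trait of the histone genes. The causes were not tested.

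Among single genes, 4 values changed direction and were called. H2AZ2 in T4R against T4 was 0.70 with the probe set of largest interquartile range (limma, adjusted p = 0.0464) and 0.44 with the mean of its probe sets (limma, adjusted p = 0.0263), which follows from its other probe sets. Without the 3 samples together, H2AC6 in T4R against S1 was -0.38 (limma, adjusted p = 0.0385) and H4C8 was -0.95 (limma, adjusted p = 0.0302). Both values rest on the first table's agents only. H3C10 and H2AC11 in T4R against T4 were not called when the tables were quantile-normalised together and the table left out of the fit. No floor of detection is known, so differences of dim members may be understated.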

Other observations

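Histone probe sets outside the members, because they name several genes or are named by 1 annotation only, gave these values in the fit over single probe sets. H2AJ, an H2A variant gene, had group means of 7.66 in S1, 7.26 in T4 and 7.81 in T4R, with 0.60 ± 0.15 for T4R minus T4 (limma, adjusted p = 0.0272) and -0.42 ± 0.16 for T4 minus S1, which did not pass. Of 4 probe sets that name H3-3A together with pseudogenes, all had T4 minus S1 between -0.41 and -0.32 and T4R minus T4 between 0.31 and 0.37. Of these, 1 passed in both comparisons, at -0.36 ± 0.07 (limma, adjusted p = 0.00398) and 0.32 ± 0.07 (limma, adjusted p = 0.00975). H3-3B, which encodes the same protein, had no call on any of its 4 probe sets. Of 2 probe sets shared by H4C11 and H4C12, one had 0.40 ± 0.11 for T4R minus T4 (limma, adjusted p = 0.0431) and the other 0.20 ± 0.12 (limma, adjusted p = 0.364). Probe sets shared by H2AC18 and H2AC19 had 0.88 ± 0.46 and 0.88 ± 0.48 for T4R minus T4 and did not pass.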
